A study of Caenorhabditis elegans with 20 samples.

Results

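The *dod* genes take their name from being downstream of DAF-16. They were followed here in dauer larvae of *Caenorhabditis elegans* from which DAF-16 could be removed in the intestine. The 9 genes described are *dod-3*, *dod-6*, *dod-17*, *dod-19*, *dod-20*, *dod-21*, *dod-22*, *dod-23* and *dod-24*. They were taken by name, with no measured value in the choice, from a table of normalized counts for 46925 gene identifiers. The annotation lists 10 genes with a *dod* name, and *dod-18* was not among the 9.

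DAF-16 is the FoxO transcription factor that acts at the end of the insulin pathway of the worm. When the insulin receptor DAF-2 signals, DAF-16 is kept out of the nucleus, and when signalling falls it enters the nucleus and changes transcription. Class I genes rise in animals with a weak insulin receptor and need DAF-16 for that rise, whereas class II genes fall in such animals and are higher where DAF-16 is missing. By this naming *dod-3* and *dod-6* are class I genes and the other 7 are class II genes.

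All animals carried the *daf-2(e1370)* mutation, which weakens the insulin receptor and sends larvae into dauer arrest at the growth temperature used, and *daf-16(ot853[daf-16::mNG::AID])*, in which DAF-16 bears a fluorescent tag and a degron. One strain, OH17582, also carried *otSi2[ges-1p::TIR1(F79G)]*, which expresses a plant F-box protein from an intestinal promoter, and OH14654 did not. Animals grew at 25°C for 3 days with 100 μM 5-Ph-IAA, the ligand that joins degron-tagged proteins to TIR1(F79G), or with solvent only. The solvent, ethanol at 0.2%, was present in all conditions. Animals not arrested as dauers were picked off. RNA came from about 24000 whole animals per sample.

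There were 4 conditions with 5 biological replicates each. Those of OH14654 were neither component (solvent only) and 5-Ph-IAA alone (with the ligand, the no TIR1 control). Those of OH17582 were TIR1 alone (solvent only, the no auxin control) and both (with the ligand). Both components together are the condition meant to deplete intestinal DAF-16. Values are normalized counts, the reads on a gene divided by a size factor for the depth of the library. A gene was called when its limma adjusted p-value over 17090 tested genes was under 0.05 and its change was at least 1.5-fold, or 0.58 on the log2 scale of normalized count + 1. Fold changes on this scale understate the change of low genes. The depletion acts on the protein and cannot be read from transcripts. Transcripts of *daf-16* averaged 8682 ± 281 normalized counts (SD, n = 5) with 5-Ph-IAA alone, 8764 ± 217 with TIR1 alone and 8334 ± 492 with both, and *daf-2* averaged 4601 ± 202, 4485 ± 197 and 4446 ± 243. Neither gene was called in any comparison.

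A library held 3989669 to 15585703 reads on genes. Replicate 5 with both components had the lowest depth and 21.4% ribosomal RNA reads, against 1.78 to 7.07% in the other libraries. Libraries with both components also differed from the rest in markers of other cells and stages. The summed normalized count of 10 oocyte markers was 3934 to 9078 with both and 2234 to 4246 in the 15 control libraries. All 10 were called higher against 5-Ph-IAA alone and 9 against TIR1 alone, as were 6 of 6 yolk protein genes and 3 of 3 adult cuticle genes against each control. Of 4 sperm markers tested 2 were called higher. The sum of 7 intestine markers was 9303 to 9939 in the controls and 13726 to 14692 with both, where 4 of the 7 were called higher. None of 5 neuron, 3 muscle or 2 dauer cuticle markers was called. Over all genes tested, 6.78% were called higher against 5-Ph-IAA alone and 6.61% against TIR1 alone. In whole animals, a change in the number of cells of a type and a change in RNA per cell cannot be told apart.

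The *dod* genes were read at very different depths. *dod-6* had 131549 reads over the 20 libraries, *dod-19* had 8307 and *dod-3* had 1047. *dod-24* had 492 reads, *dod-17* had 386, *dod-23* had 117, *dod-20* had 47, *dod-22* had 34 and *dod-21* had 10. A gene was tested when its mean normalized count over the 20 libraries was at least 2, which held for 7 of the 9 genes. *dod-21* and *dod-22*, with means of 0.39 and 1.82, had too few reads. *dod-20* lay just inside the minimum with a mean of 2.06, and *dod-23* passed only through the libraries with both components, since its mean over the 15 controls was 1.09.

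Per kilobase of exon, *dod-6* was far above the other 8 genes in the controls, with normalized counts per kilobase of 9828 to 15235. *dod-19* followed with 78.4 to 250.4 and *dod-3* with 84.7 to 171, and the ranges of these neighbours overlapped. *dod-24* ranged from 4.98 to 27.03 and *dod-17* from 0.71 to 5.58, which met at their ends. The ranges of *dod-23*, *dod-20*, *dod-22* and *dod-21* all began at 0 and ended at 6.45, 3.6, 2.54 and 0.98. With both components the level of *dod-17* per kilobase was 38.09 to 56.17, which overlapped the range of *dod-3* in that condition, 41.6 to 142.5.

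The 5 libraries with both components lay above all 15 controls for *dod-17*, *dod-19* and *dod-23*, as they did for 4.53% of all genes tested. They lay below all controls for *dod-6*, as for 2.5% of all genes.

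**Figure D1:**
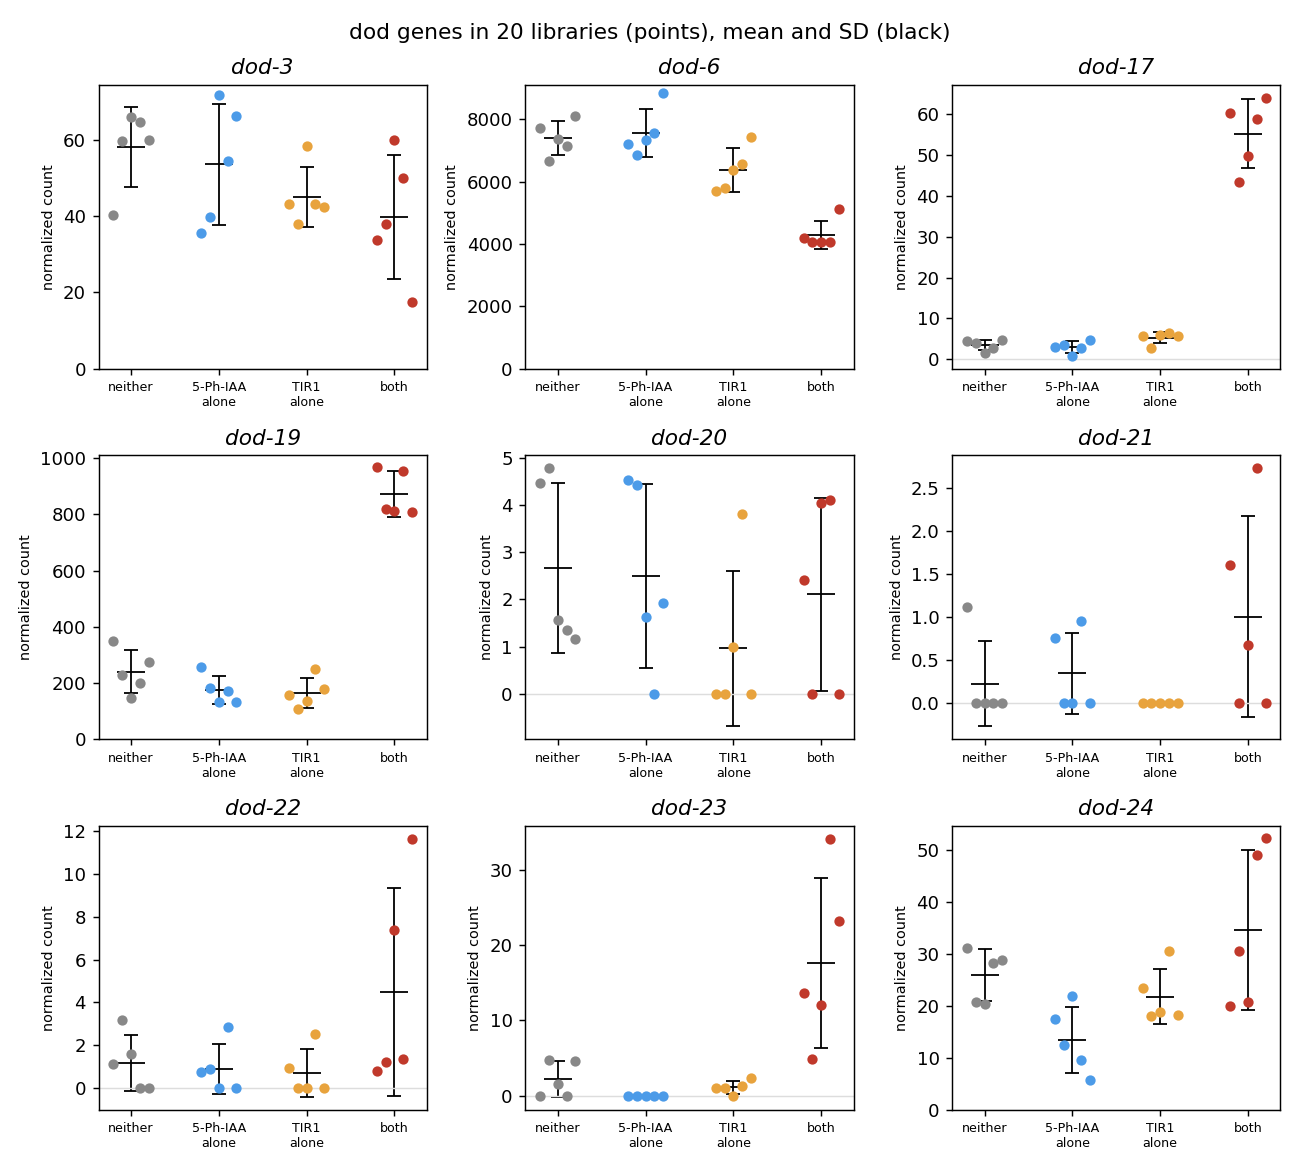
Normalized counts (vertical axes, 1 panel per gene) of the 9 *dod* genes in the 20 libraries, grouped by condition on the horizontal axes. Points are libraries, and black marks are the mean and SD of 5 replicates. With both components *dod-17*, *dod-19* and *dod-23* lay above all 15 control libraries and *dod-6* lay below them, whereas the other 5 genes overlapped.

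The comparison of both components with 5-Ph-IAA alone asks what TIR1 does in the presence of the ligand, and that with TIR1 alone asks what the ligand does in the TIR1 strain. Both comparisons use the same 5 libraries with both components. Against 5-Ph-IAA alone, *dod-17*, *dod-19*, *dod-23* and *dod-24* rose and *dod-6* fell. Among all genes tested, 6.78% were called higher and 2.39% lower in that comparison. Against TIR1 alone, *dod-17*, *dod-19* and *dod-23* rose, where 6.61% of all genes were called higher and 2.26% lower. All genes that rose were class II genes, and the gene that fell was of class I. The median log2 fold change of the 7 genes was 1.32 and 0.64, and that of all genes was −0.01 and −0.02. These counts include *dod-23*, which entered the test through the condition where it was high. Of the other 6 tested genes, 3 rose and 1 fell against 5-Ph-IAA alone, and 2 rose against TIR1 alone.

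*dod-17* is 1 of 4 *dod* genes within 41.6 kb of chromosome IV (12976303 to 12978343 on the plus strand, WBcel235, WBGene00010745). It encodes a protein with a CUB-like domain, a family whose genes often respond to infection. It was hardly expressed in the controls. With both components its 5 libraries held 60.3, 43.4, 49.8, 58.8 and 64 normalized counts. The values were 3, 3.5, 0.8, 2.9 and 4.8 with 5-Ph-IAA alone, and 5.6, 2.9, 5.9, 6.4 and 5.7 with TIR1 alone. With neither they were 4.5, 4, 1.6, 2.7 and 4.6. Every library with both components was above every control, the lowest of them at 43.4 against a highest control of 6.36. The ratio of means was 18.4 against 5-Ph-IAA alone and 10.4 against TIR1 alone. The log2 fold changes were 3.89 (SE 0.32, adjusted p = 9.09e-10) and 3.18 (SE 0.32, adjusted p = 3.36e-08). The interaction of TIR1 and ligand, the part of the change that neither adds alone, was 3.37 (SE 0.45, limma adjusted p = 7.41e-06).

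*dod-19* lies near the end of chromosome V (411782 to 414759 on the minus strand, WBGene00022644). It was moderately expressed in all conditions. Its normalized counts with both components were 967.3, 820.8, 812.4, 954.4 and 809.1. They were 255.9, 182.5, 132.8, 172.9 and 132.6 with 5-Ph-IAA alone and 156.3, 109.5, 134.7, 249.3 and 179.7 with TIR1 alone. The highest of the 15 controls was replicate 1 with neither component, at 349.6, so the groups did not overlap. The ratio of means was 4.98 and 5.26 against the 2 controls, with log2 fold changes of 2.35 (SE 0.2, limma adjusted p = 1.72e-09) and 2.44 (SE 0.2, adjusted p = 7.85e-10). *dod-19* had the smallest SD relative to its mean among the rising genes, with 873 ± 80.6 (SD, n = 5) with both.

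*dod-23* is on chromosome II (8398161 to 8399164 on the minus strand, WBGene00009898). It was at or near 0 in the controls. All 5 libraries with 5-Ph-IAA alone held no read, which allows up to 2.62 normalized counts per library at 3 reads. TIR1 alone gave 0.9, 1, 0, 1.3 and 2.3, and neither gave 0, 4.8, 1.6, 0 and 4.6. The 5 libraries with both components held 13.7, 4.9, 12.1, 34.2 and 23.3, or 101 reads in all. The lowest of them was just above the highest control, at 4.89 against 4.78 normalized counts. The mean with both was at least 6.72-fold higher than 5-Ph-IAA alone and 16.2 times that of TIR1 alone. The ratio of pooled reads against TIR1 alone, 101 against 5, was 15.7 with a 95% counting interval of 6.5 to 49.3. *dod-23* was called against both controls, but it entered the test only through the condition where it was high, so the call adds nothing to these values.

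*dod-24*, also of the CUB-like family, is on chromosome IV (12940106 to 12941354 on the minus strand, WBGene00007875). With both components its normalized counts were 20.1, 30.6, 20.8, 49.2 and 52.4. With 5-Ph-IAA alone they were 17.4, 12.4, 22, 9.6 and 5.8, and with TIR1 alone 23.4, 18.1, 18.8, 30.5 and 18.3. With neither they were 31.3, 20.7, 20.47, 28.3 and 28.9. Replicates 4 and 5 with both lay above all controls, whereas replicates 1, 2 and 3 lay within the control range. It was called against 1 of the controls, and whether the changes against them differ was not tested. Against 5-Ph-IAA alone the log2 fold change was 1.32 (SE 0.3, limma adjusted p = 0.00218), and against TIR1 alone it was 0.56 (SE 0.3, adjusted p = 0.22). 5-Ph-IAA alone was the lowest of the 4 conditions, at 13.4 ± 6.4 (SD, n = 5) against 25.9 ± 4.99 with neither. This difference of −1.004 had an unadjusted p = 0.00282 and an adjusted p = 0.512 from limma.

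*dod-6*, on chromosome III (10197716 to 10198352 on the plus strand, WBGene00011869), was the gene that fell. Its normalized counts were 4178.6, 4070.2, 4061.3, 4062.3 and 5107.8 with both components. They were 7207.9, 6870.3, 7348.2, 7548.1 and 8851.5 with 5-Ph-IAA alone and 5710.1, 5783.8, 6369.3, 6572.9 and 7421.4 with TIR1 alone. With neither they were 7717.8, 6658.3, 7377, 7150.3 and 8112.7. All 5 libraries with both were below all 15 controls. The mean with both was 0.568 of 5-Ph-IAA alone, a log2 fold change of −0.82 (SE 0.07, limma adjusted p = 4.91e-09). It was 0.674 of TIR1 alone, a change of −0.57 (SE 0.07, adjusted p = 2.24e-06) that lay just under the 1.5-fold limit and was not called. Without replicate 1 or 2 of TIR1 alone, or without replicate 5 with both, that change was −0.61, −0.60 and −0.63 and passed the limit. It also passed with quantile normalization (−0.59) and with libraries rescaled to equal totals (−0.63).

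*dod-3*, on chromosome V (2730622 to 2731098 on the minus strand, WBGene00016052), is the other class I gene. With both components it held 33.8, 37.9, 59.9, 49.9 and 17.5 normalized counts. It held 35.6, 39.9, 71.7, 54.4 and 66.3 with 5-Ph-IAA alone, 43.1, 38.1, 58.4, 43.2 and 42.3 with TIR1 alone, and 40.2, 59.8, 66.1, 64.6 and 60 with neither. The groups overlapped, and the lowest value came from the shallow replicate 5 with both. The log2 fold change was −0.48 against 5-Ph-IAA alone (95% interval −0.98 to 0.03, limma adjusted p = 0.194) and −0.27 against TIR1 alone (−0.78 to 0.24, adjusted p = 0.51). The change of *dod-6* in each comparison lies within the interval of *dod-3*.

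The other 3 class II genes gave little information. *dod-20* (chromosome V, 422433 to 424177 on the plus strand, WBGene00015259) ranged from 0 to 4.1 normalized counts with both and from 0 to 4.78 in the controls. Its intervals, from −1.53 to 0.97 and from −0.62 to 1.89, include changes of more than 2-fold. *dod-22* (chromosome IV, 12965374 to 12967392 on the plus strand, WBGene00010125) held 0.8, 1.2, 7.4, 1.4 and 11.6 with both and at most 3.19 in a control library. Replicates 3 and 5 with both stood above the controls and the other replicates did not. The exact permutation test of the means, two-sided, gave p = 0.175 against 5-Ph-IAA alone and 0.135 against TIR1 alone, where 5 against 5 libraries can reach 0.00794. *dod-21* (chromosome IV, 12936738 to 12937988 on the plus strand, WBGene00007873) held 1.6, 0, 0.7, 2.7 and 0 with both, and 3 control libraries held a single read. Its exact permutation p-values were 0.405 and 0.167. With no filter, limma gave *dod-22* log2 fold changes of 1.26 (unadjusted p = 0.0335, adjusted p = 0.189) and 1.44 (unadjusted p = 0.0165, adjusted p = 0.12), with an SE of 0.56 over the replicates. No difference passed the test for these 3 genes.

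**Figure D2:**
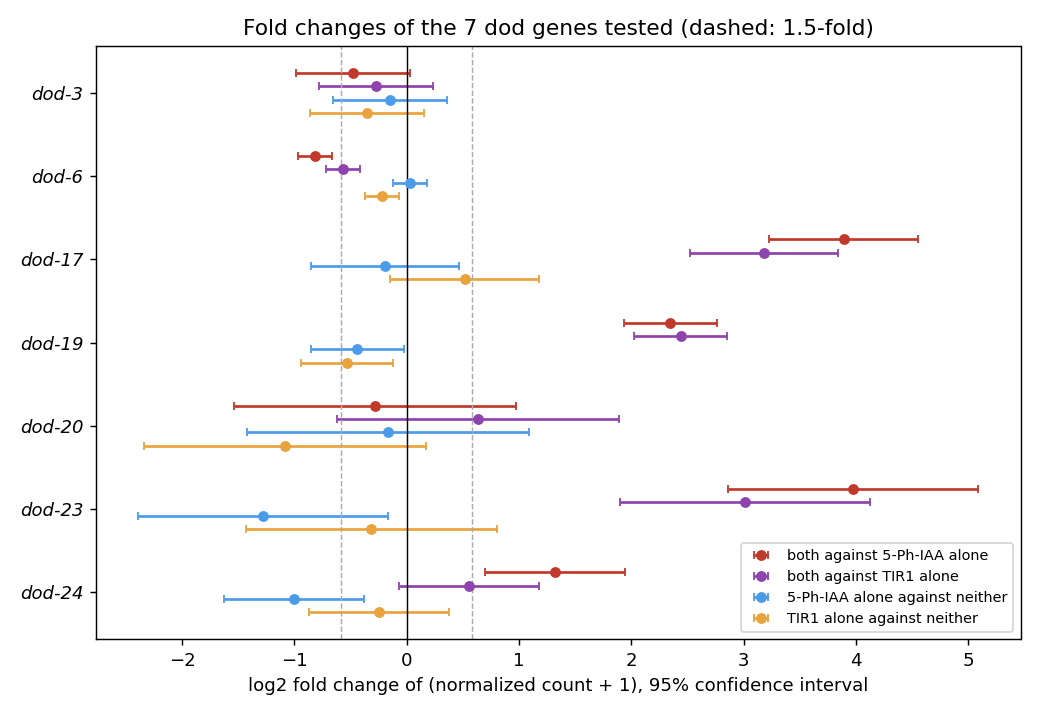
Log2 fold changes of normalized count + 1 (horizontal axis) with 95% confidence intervals for the 7 tested *dod* genes (vertical axis) in 4 comparisons, from limma over 20 libraries. Dashed lines mark a 1.5-fold change. The intervals of *dod-17*, *dod-19* and *dod-23* lay above the upper line in both comparisons with both components, and those of *dod-20* were the widest.

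No *dod* gene was called for either component alone. So few genes of any kind were called there that this does not set the *dod* genes apart. Of the 7 tested genes 0 were called by limma for 5-Ph-IAA alone against neither, where 0.0293% of all genes were called, and 0 for TIR1 alone against neither, where 0.246% were called. edgeR and DESeq2 also called 0 in each. At an unadjusted p under 0.05, which 835 of the 17090 genes passed, 3 *dod* genes were lower with the ligand alone: *dod-24*, *dod-19* by 0.44 on the log2 scale and *dod-23* by 1.28. With TIR1 alone, where 1795 genes passed, 2 were lower, *dod-6* by 0.22 and *dod-19* by 0.53. The smallest limma adjusted p among these 5 values was 0.224. Over the alternatives the change of *dod-6* with TIR1 alone was −0.28 to −0.16. Its adjusted p at the lowest fell under 0.05, where only the 1.5-fold limit kept it from being called. For 5 genes, or 4 without *dod-23*, the change with both components differed from the sum of the changes with each alone. The interaction was 2.88 for *dod-19*, 4.29 for *dod-23*, 1.56 for *dod-24* (limma adjusted p = 0.0165) and −0.60 for *dod-6*, besides that of *dod-17*, and 5.22% of all genes had a positive and 1.52% a negative interaction called. The interaction of *dod-6* lay near the limit of 0.58 and fell under it when any of 7 libraries was left out, to −0.54 at the smallest. These were replicate 2 with neither (−0.56), replicate 5 with 5-Ph-IAA alone (−0.54), replicates 4 and 5 with TIR1 alone (−0.58 and −0.54) and replicates 2, 3 and 4 with both (−0.58 each).

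The 4 *dod* genes of chromosome IV stand in a row with several genes listed here as CUB-like. That listing came from general knowledge without a check of the proteins. *dod-21* and *dod-24* lie 2.12 kb apart, *dod-22* follows after 24 kb and *dod-17* after a further 8.91 kb. Together with the 5 nearest protein-coding genes on each side of each, the stretch spans 73.2 kb and holds 19 other genes, of which 9 had enough reads. Of these 9, 6 rose and 1 fell against 5-Ph-IAA alone, beside 6.78% higher and 2.39% lower over all genes. Against TIR1 alone 5 rose and 1 fell, beside 6.61% and 2.26% over all genes. The median log2 fold changes of the 9 were 1.55 and 1.31, beside −0.01 and −0.02 for all genes. These counts and medians include *K10D11.2* and *C32H11.4*, whose means over the 15 controls, 0.98 and 1.60, were under the minimum of 2. Both entered the test only through the condition where they were high, so their calls add nothing to their values. The rising genes were not evenly spread. To the right of *dod-17*, 4 of the 5 nearest genes were tested and all 4 rose. *K10D11.2*, the next gene, went from 0.98 normalized counts over the controls to 44.1 with both, with log2 fold changes of 4.50 and 4.50 (SE 0.49) against the 2 controls. *K10D11.5* went from 9.6 to 71.6 (2.83 and 2.98, SE 0.26). *K10D11.3* and *K10D11.6* rose by 1.55 and 1.63 against 5-Ph-IAA alone.

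On the other side, 15.5 kb before *dod-21*, *C32H11.4* went from 1.6 to 17.4 normalized counts. Of the 19 genes 10 had too few reads, and 4 of these had none in any library. *dct-19*, next to *dod-24*, had 3 reads in all. *F55G11.8*, the gene before *dod-22*, was the one that fell, from 39.2 ± 10.3 with 5-Ph-IAA alone and 34.8 ± 6.96 with TIR1 alone to 17.5 ± 3.39 with both (SD, n = 5), with log2 fold changes of −1.10 and −0.95 (SE 0.2). The genes on either side of it, *F55G11.7* and *dod-22*, had too few reads to test.

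**Figure D3:**
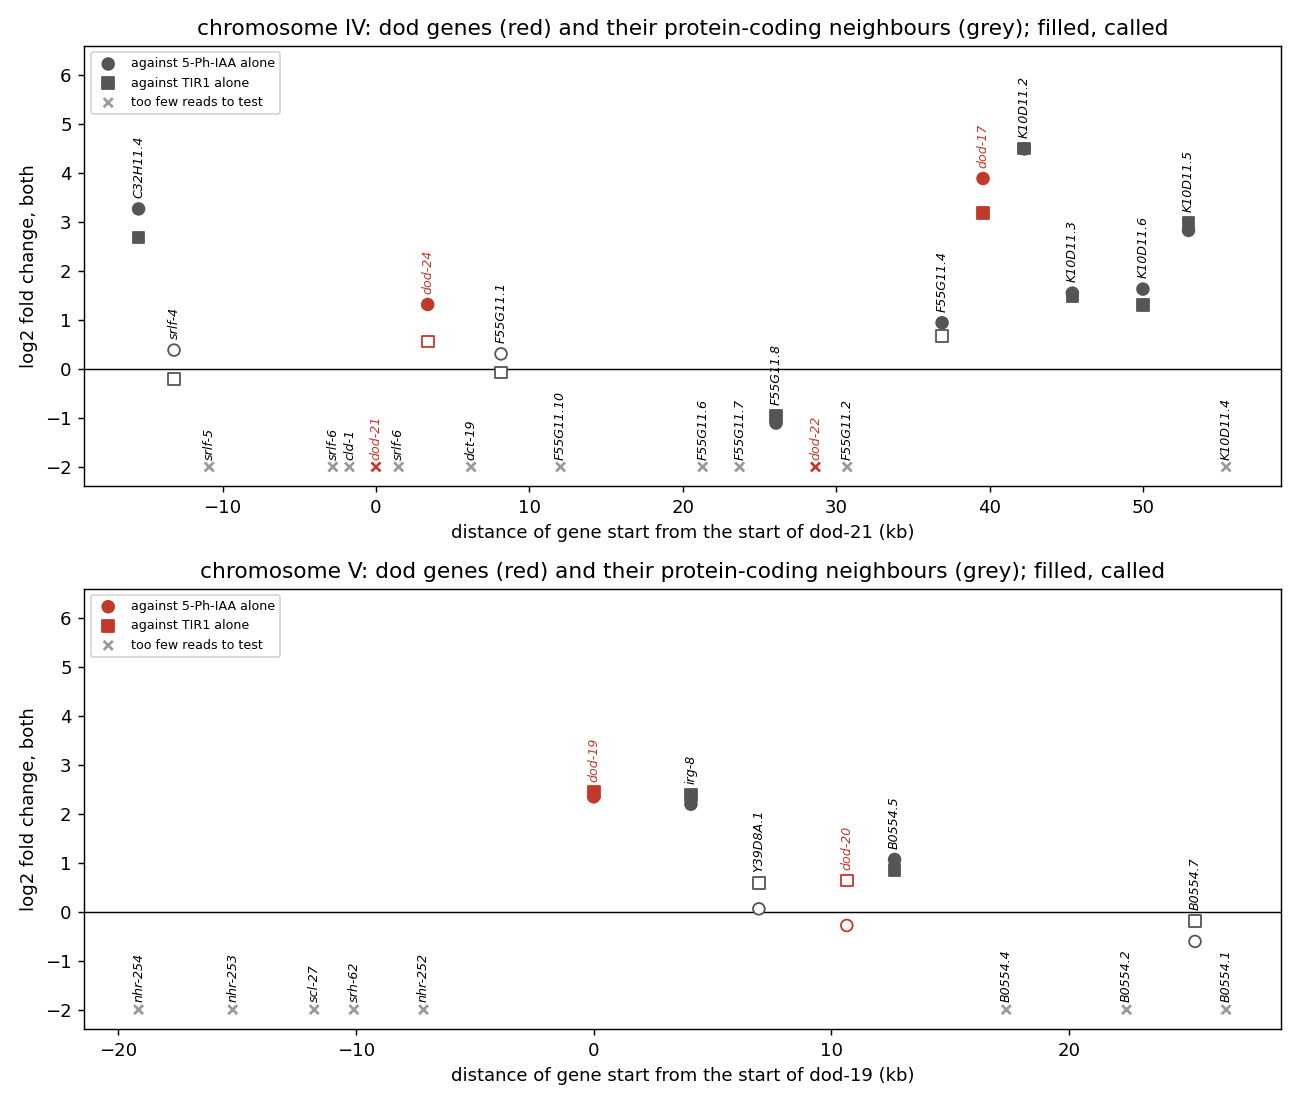
Log2 fold change with both components (vertical axes) of *dod* genes (red) and their protein-coding neighbours (grey), by the distance in kb of each gene's start from that of *dod-21* on chromosome IV (upper) or *dod-19* on chromosome V (lower). Circles are against 5-Ph-IAA alone, squares against TIR1 alone, filled marks were called and crosses had too few reads. The highest values stood at *dod-17* and the *K10D11* genes beside it, and at *dod-19* and *irg-8*.

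On chromosome V, *dod-19* and *dod-20* lie 7.67 kb apart with *irg-8* and *Y39D8A.1* between them. *irg-8*, named for its response to infection, stands next to *dod-19*. It rose from 63.8 ± 16.7 with 5-Ph-IAA alone and 57.3 ± 22 with TIR1 alone to 288 ± 29.1 with both (SD, n = 5). Its log2 fold changes of 2.20 and 2.39 (SE 0.21) were close in size to those of *dod-19*. *B0554.5*, beyond *dod-20*, rose by 1.07 and 0.86. Of the 12 other genes of this stretch 4 were tested, 2 of which rose against both controls, as did 5.27% of all genes. *Y39D8A.1* was not called, with 0.06 and 0.58.

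The other *dod* genes have no *dod* gene among their neighbours. *skpo-1*, a peroxidase gene next to *dod-23*, averaged 3.7 ± 2.26 with 5-Ph-IAA alone and 8.9 ± 10.5 with TIR1 alone. With both it averaged 53.7 ± 27.4, with changes of 3.48 and 2.92 (SE 0.62). Its lowest library with both, at 21.4, was below the highest with TIR1 alone, 26.3, and with neither, 33.5. *fdgt-2*, also near *dod-23*, was at 4.98 ± 2.28 with 5-Ph-IAA alone, 33.8 ± 8.82 with TIR1 alone and 39.4 ± 8.3 with both. It was called for TIR1 alone against neither (3.32, limma adjusted p = 5.64e-06) and not for both against TIR1 alone (0.24). *mua-3*, 3 genes from *dod-6*, rose by 0.90 and 0.94 while *dod-6* fell. Of the 10 neighbours of *dod-3* 1 had enough reads and it was not called. Over all 61 neighbours of the 9 genes 31 were tested. Of these 11, *fdgt-2* included, rose and 1 fell against 5-Ph-IAA alone, beside 6.78% higher and 2.39% lower over all genes. Against TIR1 alone 9 rose and 1 fell, beside 6.61% and 2.26% over all genes. The rising genes include *K10D11.2* and *C32H11.4*, which entered the test only through the condition where they were high. Several neighbours on chromosome IV are on the unchecked list of CUB-like genes, so position and family cannot be told apart in these counts. Related genes can share reads, and how such reads were counted is not given in the sources used here.

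The CUB-like genes were also counted across the genome, from a list of 14 drawn from general knowledge that leaves out the *dod* genes and overlaps the row on chromosome IV. Of these 12 were tested, of which 8 rose and 1 fell against 5-Ph-IAA alone, beside 6.78% higher and 2.39% lower over all genes. Against TIR1 alone 7 rose and 1 fell, beside 6.61% and 2.26% over all genes. The median log2 fold changes were 1.48 and 1.38. These counts and medians also include *K10D11.2* and *C32H11.4*, which entered the test only through the condition where they were high. *irg-4* rose by 2.26 and 2.89, and *K08D8.5* by 3.20 and 2.68. *irg-5* went from 468 ± 78.2 with 5-Ph-IAA alone and 188 ± 80.4 with TIR1 alone to 1523 ± 521 with both. It was also the 1 gene of the list called for 5-Ph-IAA alone against neither, where it rose. The gene that fell was *F55G11.8*.

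Other genes known to depend on DAF-16 were read beside the *dod* genes. Of 9 tested class I genes 3 fell against both controls, as did 1.52% of all genes tested. *sod-3*, a mitochondrial superoxide dismutase often used as a reporter of DAF-16, fell by 1.16 and 1.22 on the log2 scale, from 540 ± 30.5 and 568 ± 90.3 to 243 ± 40.5. *mtl-1*, a metallothionein, fell by 0.96 and 0.59, and *hsp-12.6*, a small heat shock protein, fell by 0.65 and 0.81. *lys-7*, a lysozyme, rose by 0.87 against 5-Ph-IAA alone and had 0.07 against TIR1 alone. The other 5, which include the catalases *ctl-1* and *ctl-2*, were not called. The change of *dod-6* against 5-Ph-IAA alone, −0.82, lay between those of *hsp-12.6* and *mtl-1*.

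Of 5 class II genes other than *dod* genes 3 rose against both controls, as did 5.27% of all genes tested. *ins-7*, an insulin-like peptide that activates DAF-2, rose by 1.62 and 2.52, from 2.76 ± 2.41 and 1.17 ± 1.98 to 9.35 ± 3.7 normalized counts. The yolk protein genes *vit-2* and *vit-5*, which also stand among the yolk markers above, rose by 7.12 each against 5-Ph-IAA alone. *gcy-6* and *gcy-18*, receptor-type guanylyl cyclases, were not called. Of 10 genes of the insulin pathway, from *daf-2* to *daf-16*, 1 was called: *sgk-1*, a kinase, rose by 0.68 and 0.88.

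Because oocyte markers differed between the conditions, the *dod* genes were set beside them in each library. The sums of the 10 oocyte markers in replicates 1 to 5 with both were 5766, 3934, 5968, 9078 and 9075, and replicate 5 with neither reached 4246. *dod-23* followed these sums, since its 2 highest values came from the libraries with the 2 highest sums and its lowest value with both from the library with the lowest sum. *dod-24* also had its 2 highest values in replicates 4 and 5. *dod-17* had its highest value, 64, in replicate 5 and its lowest, 43.4, in replicate 2. *dod-19* did not have this order, with 967.3 in replicate 1 and 809.1 in replicate 5. *dod-6* lay between 4061 and 4179 in replicates 1 to 4, whose sums ranged from 3934 to 9078, and at 5108 in replicate 5, with a sum of 9075.

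Replicate 2 with both, at a sum of 3934, was nearest to replicate 5 of TIR1 alone, at 3901, and replicate 5 with neither, at 4246. These 3 libraries were chosen after the values were seen and have no test. In that order *dod-17* was at 43.4, 5.72 and 4.62, *dod-19* at 821, 179.7 and 275, and *dod-6* at 4070, 7421 and 8113. *dod-23* was at 4.89, 2.29 and 4.62, and *dod-24* at 30.6, 18.3 and 28.9. *dod-17*, *dod-19* and *dod-6* differed from both control libraries in the direction of the groups. *dod-23* and *dod-24* were above the first control library and close to the second.

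The log2 oocyte sum was then entered in the fit, a choice made once the values were known, and 3 of the 7 genes stayed called against 5-Ph-IAA alone. In that fit the log2 fold changes of *dod-17* were 3.33 and 2.67 (limma adjusted p = 5.43e-04 and 0.00247 against the 2 controls), those of *dod-19* were 1.97 and 2.10 and those of *dod-6* were −1.02 and −0.75. *dod-23* was no longer called, at 1.33 (adjusted p = 0.455) and 0.60 (adjusted p = 0.784). *dod-24* was not called either, at 0.63 (adjusted p = 0.658) and −0.06 (adjusted p = 0.974). The covariate and the conditions overlap little, since 14 of the 15 controls had lower sums than every library with both. The part of oocyte RNA in the changes of *dod-6*, *dod-17*, *dod-19*, *dod-23* and *dod-24* was not tested in any other way. Without replicate 5 with both, which had one of the 2 highest sums and the lowest depth, the same 5 genes were called against 5-Ph-IAA alone. They include *dod-23*, which entered the test only through the condition where it was high. Replicate 4 with both, with a sum of 9078, stayed in that fit, so the fit cannot decide the part of oocyte RNA.

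**Figure D4:**
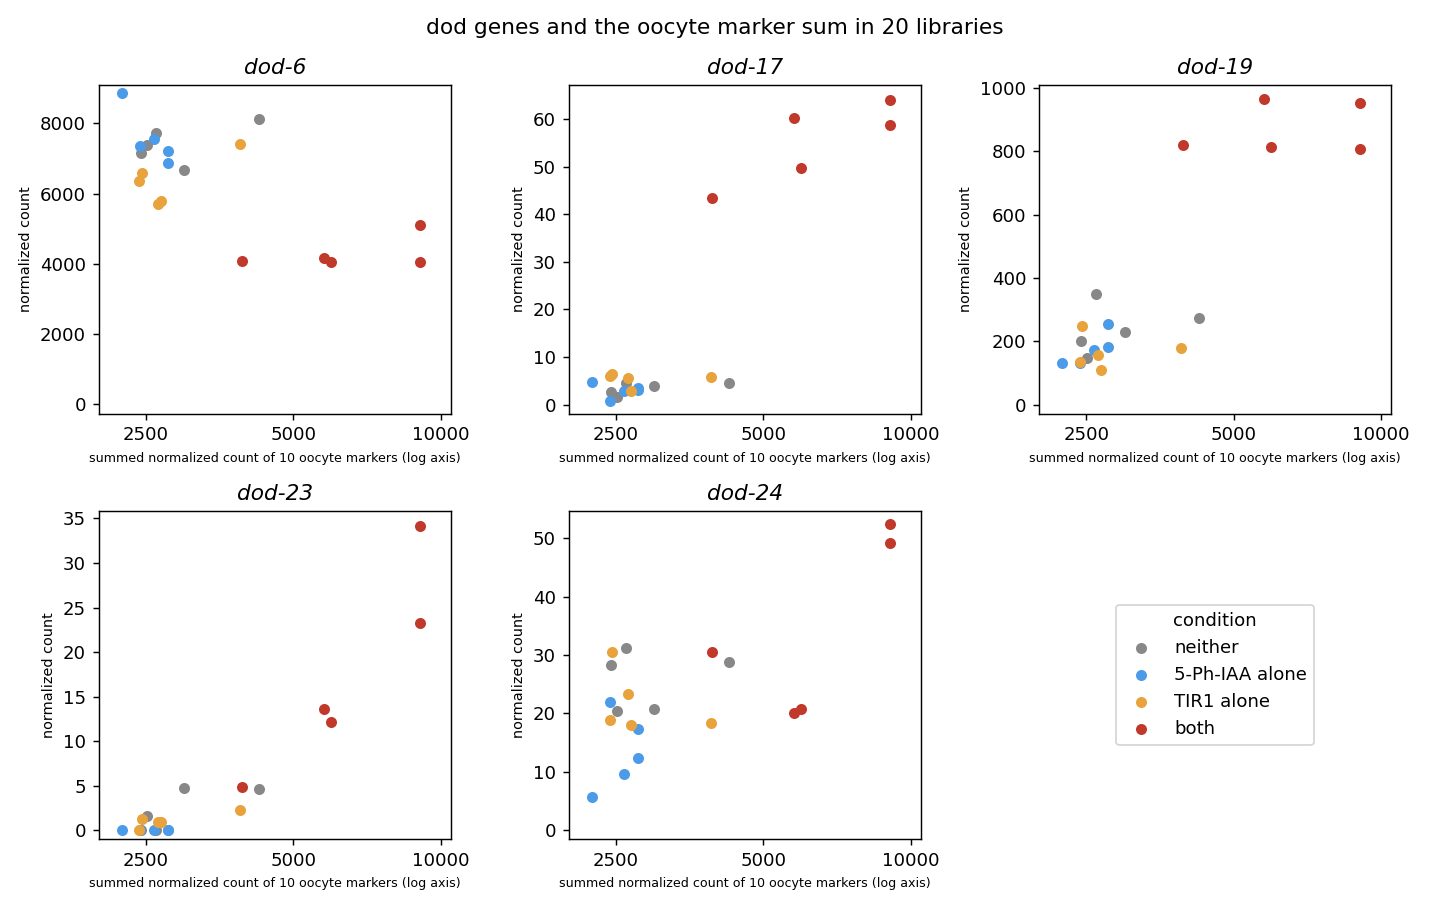
Normalized counts (vertical axes) of 5 *dod* genes against the summed normalized count of 10 oocyte markers (horizontal axes, log scale) in the 20 libraries, coloured by condition. *dod-23* was highest in the libraries with the highest sums. *dod-17*, *dod-19* and *dod-6* with both were apart from controls at the close sums of 3901, 3934 and 4246. The libraries with these sums were chosen after the values were seen and have no test.

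For 5 *dod* genes with a mean of at least 10, the genes most alike across the 20 libraries were found by Pearson's r of log2(normalized count + 1). These values describe libraries that share conditions, so r over the 15 controls is given second. The genes were chosen by r over all 20 libraries, which hold these controls, so the second r is not a separate check. *dod-17* reached the mean of 10 only through the libraries with both components, with a mean of 3.93 over the controls. The gene most like *dod-19* was its neighbour *irg-8*, with r = 0.982 over 20 libraries and 0.881 over the controls, followed by *C01B10.6* (0.977 and 0.83) and *asp-6* (0.969 and 0.76), an aspartyl protease. Nearest to *dod-17* were *plc-2* (0.983 and 0.888), a phospholipase C, *clec-186* (0.973 and 0.749) and *ctsa-2* (0.97 and 0.583). Nearest to *dod-6* were *ZK355.3* (0.972 and 0.923), *ZK355.8* (0.965 and 0.849) and *atf-6* (0.964 and 0.774), a transcription factor of the unfolded protein response. *dod-24* and *dod-3* had no gene as close, with *F08F1.4* (0.81 and 0.738) for *dod-24* and *dys-1*, the dystrophin gene (0.868 and 0.84), for *dod-3*.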

How the data were processed

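RNA-seq of 20 libraries was analysed. The authors trimmed reads with Trimmomatic, aligned them with STAR to the WS284 genome, counted them on genes with featureCounts and divided the counts by DESeq2 size factors; tool versions and strand setting are not given in the sources used here. The deposited signal values are these normalized counts, given separately for each library. Dividing each column by the value of 1 read gave whole reads within 0.01 for 100% of values. Positions and symbols came from the WBcel235 annotation, in which 46921 of 46925 identifiers were found and 44113 had a symbol. No sequence was printed.

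Comparisons used limma 3.58.1 (R 4.3.3). The log2 of normalized count + 1 was fitted by condition, with the variance allowed to depend on the mean and p-values were adjusted by Benjamini-Hochberg over the 17090 genes with a mean of at least 2. Low genes were compared with exact permutation tests. The *dod* genes, lists and markers were chosen with earlier results of these data known, and the lists came from general knowledge without a check of the proteins; *hsp-16.11* and *hsp-16.49* of the class I list were not analysed here. The genes named besides the 9 are, from each list, up to 4 with the largest change among those called against both controls, up to 4 called neighbours of a *dod* gene and the 3 most correlated genes. *irg-5*, *lys-7*, *ctl-1*, *ctl-2*, *gcy-6*, *gcy-18*, *Y39D8A.1*, *dct-19*, *fdgt-2*, *F55G11.7* and *F55G11.2* are named outside this rule after their values were seen. Alternatives were other pseudocounts (0.5 and 5) and minimum means (10 or no filter), quantile normalization, equal totals, a replicate block, only the compared conditions, edgeR 4.0.16 and DESeq2 1.42.0 on recovered reads, an adjusted p-value of 0.01, a 2-fold limit or none, and each library left out. An oocyte covariate was chosen later, with the results known. The fits were tested on simulated data. Intervals and the floor of 3 reads cover counting error only. Tables and plots were made with Python 3.11.15, pandas 2.3.3, numpy 2.4.6, scipy 1.17.1 and matplotlib 3.10.9.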

Additional observations from a re-analysis of the deposited data

Results flagged for a closer look

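Of 28 sets of 5 replicates of the tested *dod* genes, 5 held a library that stood apart from the other 4 by Dixon's ratio at its 95% limit of 0.71. Chance alone marks about 1 in 20 sets of normally distributed values. That rate need not hold for genes with few reads, such as *dod-17* and *dod-20* in the controls. *dod-3* was at 40.2 normalized counts in replicate 1 with neither component, below the other 4, and at 58.4 in replicate 3 of TIR1 alone, above the other 4. *dod-6* was at 5108 in replicate 5 with both components, the library with the lowest depth and the highest share of ribosomal RNA reads, and this value was still below every control. *dod-17* was at 2.86 in replicate 2 of TIR1 alone, below the other 4. *dod-20* was at 3.82 in replicate 4 of TIR1 alone, where 3 of the other 4 libraries had no read. The part of depth and ribosomal RNA in the value of *dod-6* was not tested.

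The effect of 5-Ph-IAA differed between the strains with and without TIR1 for 5 genes, by the interaction term of limma. The log2 interaction was 3.37 for *dod-17*, 2.88 for *dod-19*, 4.29 for *dod-23*, 1.56 for *dod-24* and −0.60 for *dod-6*. *dod-23* entered the test only through the condition where it was high. With the oocyte sum as a covariate 3 of these stayed called, and the interactions of *dod-23* and *dod-24* were then 1.52 (adjusted p = 0.53) and 0.85 (adjusted p = 0.641).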

How the results depend on the processing

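*dod-17* and *dod-19* were called against both controls under all 34 alternatives run, with log2 fold changes from 2.92 to 4.20 and from 1.97 to 2.50 against 5-Ph-IAA alone. With the oocyte covariate 3 *dod* genes in place of 5 were called against 5-Ph-IAA alone and for the interaction, the only shift of over 1.5 times in these counts. Against TIR1 alone 4 in place of 3 were called with quantile normalization, equal totals or no fold limit. With a 2-fold limit 4 were called against 5-Ph-IAA alone and 4 for the interaction, and at an adjusted p of 0.01 the interaction also had 4. Leaving out 1 library at a time gave 5 in each case against 5-Ph-IAA alone, 3 to 4 against TIR1 alone, 4 to 5 for the interaction and 0 for each single component. The counts above 0 include *dod-23*, which entered the test only through the condition where it was high. At a minimum mean of 10, where *dod-20* and *dod-23* were not tested, the counts were 4, 2 and 4. These include *dod-17*, whose mean over the 15 controls was 3.93. At this minimum it passed only through the condition where it was high, so its call there adds nothing to its values.

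Over all genes, leaving out 1 library gave 1434 to 1596 calls against 5-Ph-IAA alone (1568 with all libraries), 1368 to 1544 against TIR1 alone (1517), 1002 to 1194 for the interaction (1151), 4 to 7 for 5-Ph-IAA alone (5) and 24 to 55 for TIR1 alone (42). In the same order of comparisons, the oocyte covariate gave 626, 678 and 480, no fold limit gave 3369, 3237 and 1840 and, for TIR1 alone, 103, and a 2-fold limit gave 992 and 944, then 3 and 18 for the single components. An adjusted p of 0.01 left 20 for TIR1 alone, and DESeq2 gave 12 for 5-Ph-IAA alone. Fitting only the compared conditions gave 11 for 5-Ph-IAA alone, and such a fit does not exist for the interaction.

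Replicate numbers were not treated as pairs in the main fit. Of 30 pairs with the same number 3 had correlated deviations over 0.1 (median 0.049, range −0.0982 to 0.249). Of 120 pairs with different numbers 5 did (median −0.012, range −0.1835 to 0.1325). In 13 of 20 libraries the best correlation was with their own number, a hint of pairing from the data and not the design. Shared handling of samples with the same number was not tested. With the number as a replicate block 18 genes in place of 5 were called for 5-Ph-IAA alone and 107 in place of 42 for TIR1 alone. No *dod* gene changed its call.

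Changes that turned sign were of genes not called. *dod-3* had an interaction of 0.0403 with edgeR, 0.0226 with DESeq2, 0.37 with the oocyte covariate and −0.29 to 0.14 with 1 library left out, and 0.16 against TIR1 alone with the covariate, under which *dod-24* had −0.0641. With 1 library left out the range was −0.39 to 0.23 for *dod-20*, −0.029 to 0.0628 for *dod-6* and −0.38 to 0.069 for *dod-17* with 5-Ph-IAA alone, −0.67 to 0.0426 for *dod-20* with both against 5-Ph-IAA alone, and −0.63 to 0.00034 for *dod-23* with TIR1 alone. The causes were not tested. *dod-20*, *dod-21* and *dod-22* had 10 to 47 reads in all.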

Other observations

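*dod-18*, the gene with a *dod* name outside the 9, was at 61.8 ± 8.36 normalized counts with neither component, 56.2 ± 2.03 with 5-Ph-IAA alone, 58.4 ± 10.5 with TIR1 alone and 55.6 ± 13.8 with both (SD, n = 5). Its log2 fold changes with both were −0.05 and −0.08 against the 2 controls (limma adjusted p = 0.875 and 0.768).

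*F55G11.2*, the gene after *dod-22* on chromosome IV, had 46 reads in all and was not tested. It averaged 0.67 normalized counts over the 15 controls and 5.93 over the 5 libraries with both components.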
